A study of Mus musculus with 18 samples.

Results

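A panel of glucocorticoid response genes was followed through the livers of mice born from frozen germ cells and of wild-type mice. They are Nr3c1, Hsd11b1, Fkbp5, Tsc22d3, Tat, Sgk1, Klf9, Mt1, Mt2 and Tdo2, chosen by name as 10 of the 32285 genes in the count table. All 10 passed the filter on low counts. The pups traced back to germline stem (GS) cells, a culture of spermatogonial stem cells of DBA/2 background. For the Space group the GS cells had spent 6 months frozen in orbit, on the International Space Station, and for the Ground group they were stored frozen on Earth over the same period. The thawed cells were transplanted into infertile W mice, whose matings with C57BL/6 females gave the pups, and pup livers were taken at 10 weeks of age. BDF1 mice were wild-type controls, for which the labels give no age. All 3 groups are labelled B6D2F1 and wild-type, with 6 libraries each, and the labels do not tie pups to fathers or litters.

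Glucocorticoids are adrenal steroid hormones that are released with a daily rhythm and in stress. In the liver they bind the glucocorticoid receptor, which moves to the nucleus and activates genes for amino acid breakdown, glucose production and its own restraint. The enzyme encoded by Hsd11b1 regenerates active hormone inside the hepatocyte, and corticosteroid-binding globulin, encoded by Serpina6, carries the hormone in blood. Many of these target genes also respond to other inputs, such as metals, feeding, inflammation and the clock.

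Total counts per library ranged from 15407450 to 20562351, and levels are given as CPM, the counts relative to the library size after TMM scaling. The replicate numbers fell into separate sets. In replicates 1 to 3 of every group Xist, which is transcribed from an inactive X chromosome, had between 0 and 187 counts and the Y-linked genes between 1822 and 2482 counts. In replicates 4 to 6 Xist had between 12218 and 21557 counts and the Y-linked genes between 0 and 26. The genes were therefore compared within each set. Sex, time of collection and any other property that follows the replicate number cannot be told apart here. In the pups of replicates 4 to 6, Alb (albumin) took between 17.6% and 24.1% of counts, against between 6.72% and 8.03% in BDF1. Serpina6 set 3 libraries apart, making up 3.43% of counts in Space replicate 4 and between 2.18% and 3.41% in Ground replicates 5 and 6, against at most 0.107% in the other 15. The summed level of 6 hepatocyte markers was at least 57660 CPM in every library, and the summed level of 3 adipocyte genes did not exceed 1.10 CPM. Of 4 adrenal cortex genes, Cyp11b1 had 0 counts in each library and Cyp11b2 at most 4, while Star had between 8 and 41 and Cyp21a1 between 6 and 146. Cyp21a1 was highest in Ground replicate 1 (7.15 CPM) and lower in replicates 4 to 6 than in 1 to 3 (log2 difference -2.08, edgeR adjusted p 3.78e-05). In whole liver, fewer cells of a type and less RNA per cell cannot be told apart.

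Sequences are shown for the metallothioneins, whose levels changed most, and for the member with the clearest receptor element in its promoter. Metal response elements, the sites of the metal-sensing factor MTF1, share the core TGCACNC or TGCGCNC, searched on both strands and printed in capitals. In the RefSeq promoter table (GRCm38.p6) the stretch upstream of Mt1 (chr8:94178839-94179081, plus strand) held 1 core and that of Mt2 (chr8:94172368-94172617, plus strand) held 3.
Mt1: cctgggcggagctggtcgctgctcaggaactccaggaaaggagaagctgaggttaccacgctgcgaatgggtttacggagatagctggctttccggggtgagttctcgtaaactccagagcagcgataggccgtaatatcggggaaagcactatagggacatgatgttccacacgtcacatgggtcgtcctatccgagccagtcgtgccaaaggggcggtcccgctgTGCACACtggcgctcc
Mt2: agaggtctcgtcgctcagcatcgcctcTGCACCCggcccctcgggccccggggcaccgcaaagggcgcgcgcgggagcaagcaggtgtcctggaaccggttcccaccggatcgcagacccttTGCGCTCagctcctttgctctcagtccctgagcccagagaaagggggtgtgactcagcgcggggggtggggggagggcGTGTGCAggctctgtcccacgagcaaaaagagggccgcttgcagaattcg
Of 32851 promoter windows of 250 bases, 21.4% held at least 1 such core and 1.26% held 3 or more. GENCODE places other transcript starts of Mt1 downstream, at 94179211 and 94179241, and bases after the RefSeq start were not searched. The full consensus glucocorticoid response element, AGAACA and TGTTCT with 3 bases between them, was in 3 of the 32851 windows (0.00913%), upstream of Acnat2, Gm35041 and an inner start of Sgk1. In Sgk1 it lay at chr10:21993694-21993722 on the plus strand, with the element in capitals.
Sgk1: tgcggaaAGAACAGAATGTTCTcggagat
None of the windows of the other members with an entry held this palindrome, which says only that these letters are not in those windows. Nr3c1 had no entry.

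**Figure D1:**
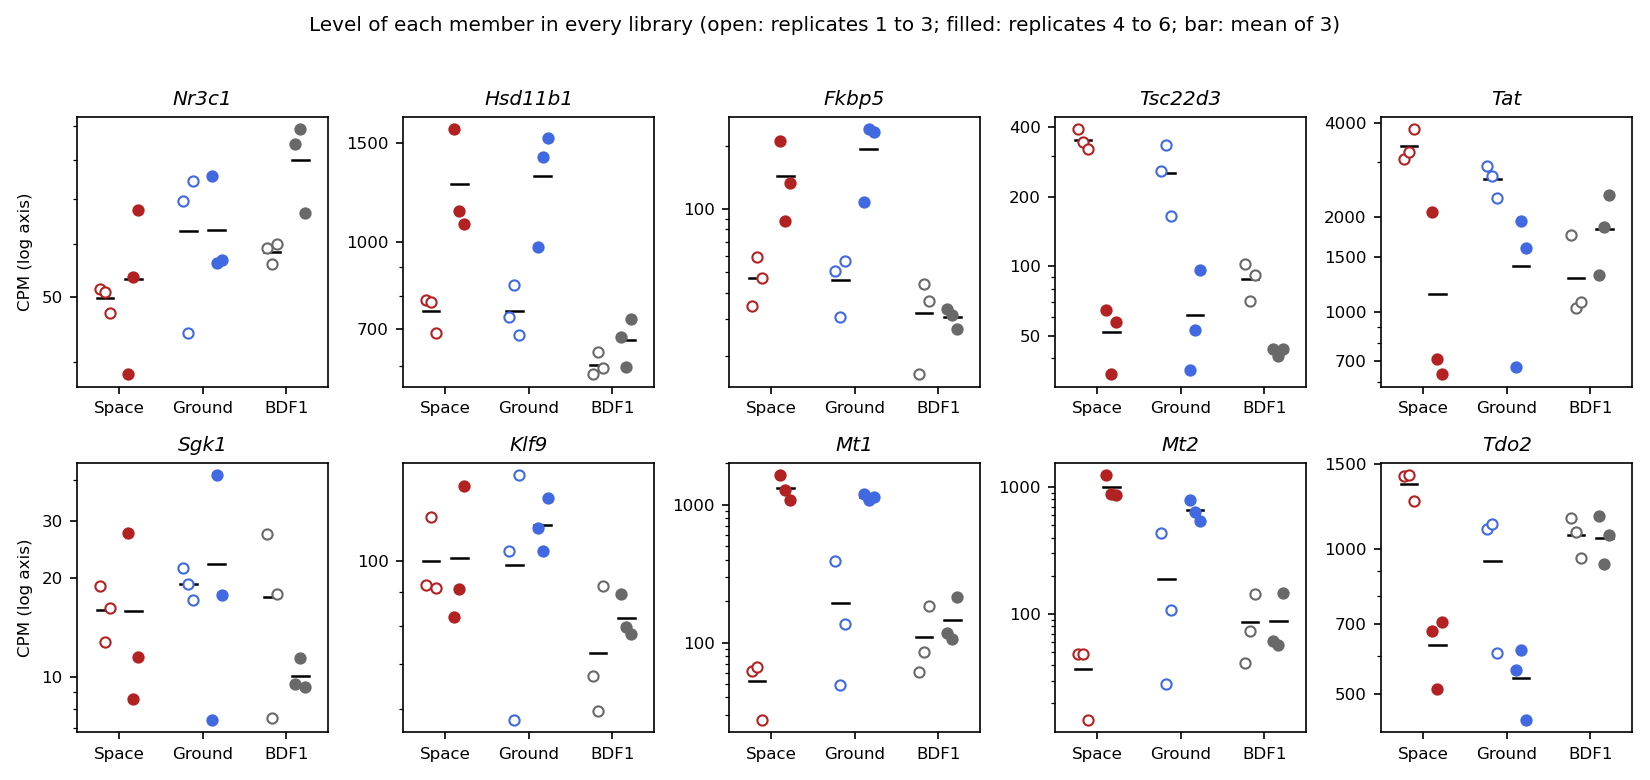
Level of each member in every library, in CPM on a log axis, for Space, Ground and BDF1. Open points are replicates 1 to 3, filled points replicates 4 to 6, and bars the mean of 3 libraries. Mt1 lies between 1076 and 1638 CPM in the 6 pups of replicates 4 to 6 and at most at 392 CPM elsewhere, while Tsc22d3 is highest in the pups of replicates 1 to 3.

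Over all replicates few members passed the test. In Space pups against BDF1 0 of 10 passed an adjusted p under 0.05 in edgeR, where 3.8% of all 12847 genes tested did. An unadjusted p under 0.05 was found for 7 members and 20.8% of all genes, and DESeq2 called 3 members and 8.02% of all genes. With the replicate number as a block Hsd11b1 was called (adjusted p 0.0466, and 0.0407 in Ground), as were 6.02% of all genes in Space and 6.56% in Ground. With the replicate set as a covariate 3 of 10 were called in each pup group, beside 10.4% of all genes in Space and 11.2% in Ground. By group alone 1 of 10, Fkbp5, was called in Ground pups against a background of 3.81%, with a log2 change of 1.93 (edgeR adjusted p 0.0442, SE 0.512). That call was lost without any of the 6 BDF1 libraries, Ground replicates 3, 4, 5 or 6, or Space replicates 2, 5 or 6 (adjusted p up to 0.105). It was also lost without a filter on low counts, and without the 3 Serpina6-rich libraries, where the log2 change was 0.97 (adjusted p 0.178). These comparisons share the BDF1 libraries. Between Space and Ground pups 0 of 10 members and 0% of genes were called, with 0 members at an unadjusted p under 0.05, beside 9.23% of all genes, and 0 in DESeq2, beside 0.312%.

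Of the 10, only Tsc22d3 was called in replicates 1 to 3, in Space pups (background 4.64%) and in Ground pups (background 1.92%). Among replicates 4 to 6, 5 of 10 were called in Space pups (background 11.9%) and 5 of 10 in Ground pups (background 15.2%). Both pup groups had 4 of 10 higher, namely Hsd11b1, Fkbp5, Mt1 and Mt2 (background 6.43% in Space and 7.86% in Ground), and 1 of 10 lower, Tdo2 (background 5.49% and 7.35%). The median log2 change of the 10 members was 0.47 in Space and 0.75 in Ground pups of replicates 4 to 6, beside 0.0094 and 0.0098 over all genes tested. For replicates 1 to 3 it was 0.34 and 0.47, beside -0.0036 and 0.0086.

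**Figure D2:**
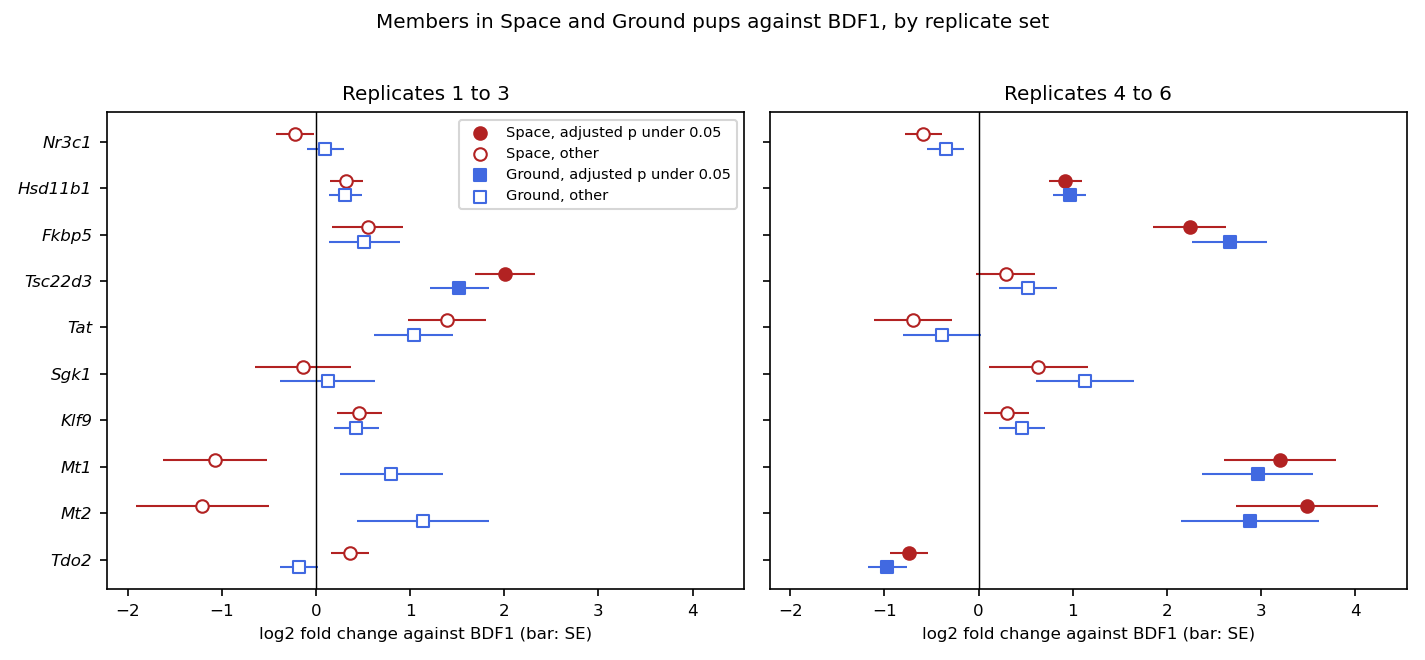
Log2 fold change of each member in Space (circles) and Ground (squares) pups against BDF1, from the edgeR fit with 6 cells of group and replicate set. Bars are SE, and filled symbols passed an adjusted p under 0.05. The metallothioneins reach 3.48 in Space and 2.96 in Ground pups of replicates 4 to 6, and Tsc22d3 reaches 2.01 in Space pups of replicates 1 to 3.

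Nr3c1, the gene of the receptor itself, was not called in any comparison with BDF1. Among replicates 4 to 6 it stood at 38.3, 53.5 and 67.5 CPM in Space, at 75.8, 56.2 and 56.8 CPM in Ground and at 84.6, 88.9 and 66.8 CPM in BDF1. The Space and BDF1 ranges overlapped by the replicate 6 libraries alone. The log2 change in Space was -0.59 (edgeR adjusted p 0.0621, SE 0.199), and it passed without Space replicate 6, Ground replicate 2 or Ground replicate 4, in DESeq2 and with total counts in place of TMM scaling (lowest adjusted p 0.0109). In this comparison DESeq2 called 15.9% of all genes and total counts 37.3%, against 11.9% in edgeR with TMM scaling. Space replicates 1 to 3 lay between 47.2 and 51.4 CPM, just under the 55.9 to 60.0 CPM of BDF1, and Ground between 44.1 and 74.4 CPM.

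Hsd11b1, which restores active corticosterone from its inert form, was higher in the pups of replicates 4 to 6. Space read 1586, 1132 and 1077 CPM, Ground 977, 1418 and 1530.5 CPM, and BDF1 677, 599 and 728 CPM. Every pup library was above every BDF1 library. The share of all genes that lay apart from BDF1 in this way was not counted, here or for the other members. Means were 1.89-fold higher in Space and 1.96-fold higher in Ground, with log2 changes of 0.92 (edgeR adjusted p 0.00400, SE 0.175) and 0.97 (adjusted p 0.00213, SE 0.175). Pups of replicates 1 to 3 ranged from 683 to 837 CPM and BDF1 from 581 to 636 CPM, without overlap, and neither comparison passed (log2 changes of 0.32 and 0.31, edgeR adjusted p 0.331 and 0.402). H6pd, which makes the cofactor for this reaction, was also higher in replicates 4 to 6, by 1.04 in Space and 1.33 in Ground on the log2 scale (edgeR adjusted p 0.00145 and 0.000204).

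Fkbp5, a co-chaperone that lowers the hormone affinity of the receptor and is itself a receptor target, rose in the pups of replicates 4 to 6. Its levels were 211, 88.2 and 134 CPM in Space, 108, 239.6 and 233 CPM in Ground, and 33.5, 31.1 and 26.8 CPM in BDF1. The lowest pup was above the highest BDF1 library. Means were 4.73-fold and 6.34-fold higher, at log2 changes of 2.24 (edgeR adjusted p 0.00233, SE 0.390) and 2.66 (adjusted p 6e-04, SE 0.396). Among replicates 1 to 3 the levels overlapped, with 34.5, 59.2 and 46.8 CPM in Space, 50.8, 30.6 and 56.5 CPM in Ground and 16.3, 43.8 and 36.3 CPM in BDF1. The rise in Ground pups was larger in replicates 4 to 6 than in 1 to 3 by 2.15 on the log2 scale (edgeR adjusted p 0.0413, SE 0.536), where 2.74% of all genes differed in this way. This call was lost with the replicate block (adjusted p 0.120), without the Serpina6-rich libraries (adjusted p 0.228) and in 13 of 18 fits with 1 library fewer. For Space the difference was 1.69 (adjusted p 0.0942, SE 0.535).

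Tsc22d3, which encodes the anti-inflammatory leucine zipper protein GILZ and lies on the X chromosome (chrX:140539528-140600659, minus strand), was called in replicates 1 to 3. Its levels in replicates 1 to 3 were 392, 345 and 322 CPM in Space, 259, 336 and 165 CPM in Ground and 102, 71.0 and 91.2 CPM in BDF1. All 6 pups were above the 3 controls, and the Space and Ground ranges overlapped. It rose 4.01-fold in Space, a log2 change of 2.01 (edgeR adjusted p 0.00220, SE 0.319), and 2.88-fold in Ground, a log2 change of 1.52 (adjusted p 0.0214, SE 0.314). The Ground call was lost without Ground replicate 1 or 2 or BDF1 replicate 2 or 3 (adjusted p up to 0.104), and with the replicate number as a block (adjusted p 0.0523). Pups of replicates 4 to 6 ranged from 34.0 to 96.3 CPM and BDF1 from 40.7 to 43.9 CPM, and neither comparison passed. For Space pups the change in replicates 4 to 6 was smaller than in 1 to 3 by 1.72 on the log2 scale (a difference of -1.72, SE 0.441, edgeR adjusted p 0.0436, background 3.19%), and for Ground pups the difference was -1.0 (adjusted p 0.245). The Space difference was lost with the block (adjusted p 0.0668) and in 12 of 18 fits with 1 library fewer.

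Sgk1, a kinase of salt and stress signalling, and Klf9, a transcription factor induced by the hormone, were not called against BDF1 in either set. Sgk1 was low, between 7.37 and 41.3 CPM over all 18 libraries. Its highest libraries were Ground replicate 5 at 41.3 CPM and Space replicate 4 at 27.5 CPM, beside BDF1 replicate 1 at 27.3 CPM. In Ground pups of replicates 4 to 6 its log2 change was 1.13 (edgeR adjusted p 0.151, SE 0.518), and it passed without Ground replicate 4 (adjusted p 0.0310). Klf9 in replicates 4 to 6 was 112, 104 and 124 CPM in Ground, above the 89.3, 79.6 and 77.7 CPM of BDF1, and 82.4, 90.9 and 129 CPM in Space. The Ground and BDF1 ranges did not overlap, yet the log2 change of 0.46 (SE 0.240) did not pass (edgeR adjusted p 0.210).

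Tat and Tdo2, classical hormone-induced liver enzymes, start the breakdown of tyrosine and of tryptophan. Tat in replicates 1 to 3 was 3056, 3223 and 3803 CPM in Space, 2917, 2714 and 2310.5 CPM in Ground and 1755, 1034 and 1076 CPM in BDF1. The groups did not overlap. The log2 changes of 1.39 in Space (edgeR adjusted p 0.0710, SE 0.419) and 1.04 in Ground (adjusted p 0.227, SE 0.415) nevertheless missed the threshold. Both passed when the 9 libraries of replicates 1 to 3 were fitted alone and without the 3 Serpina6-rich libraries, and the Space change also passed in DESeq2 and without Space replicate 4 or Ground replicate 4 (lowest adjusted p 0.00170 and 0.0139 over these alternatives).

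Tat split the pups of replicates 4 to 6. Space replicate 4 and Ground replicates 5 and 6 stood at 2078, 1953 and 1597 CPM, within the 1314, 1860.5 and 2355 CPM of BDF1, while Space replicates 5 and 6 and Ground replicate 4 stood at 714, 636 and 671 CPM. The changes from BDF1 were -0.69 in Space (edgeR adjusted p 0.280, SE 0.413) and -0.39 in Ground (adjusted p 0.560, SE 0.412). Without Space replicate 4 the Space change was -1.45 and passed (edgeR adjusted p 0.0296). With total counts in place of TMM scaling both changes, lower in the pups, passed as well. That scaling called 37.3% of all genes in Space and 45.9% in Ground, against 11.9% and 15.2% with TMM scaling.

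Tdo2 was lower in the pups of replicates 4 to 6, at 676, 513 and 705 CPM in Space and 562, 616 and 442 CPM in Ground against 1167, 928 and 1068 CPM in BDF1. No pup reached the BDF1 range. The log2 changes were -0.74 in Space (edgeR adjusted p 0.0291, SE 0.205) and -0.97 in Ground (adjusted p 0.00549, SE 0.206). The Space call was lost without Space replicate 4 or 5, without BDF1 replicate 4 or 6 (adjusted p up to 0.1025), and when only the 9 libraries of this set were fitted (adjusted p 0.0529). Space replicates 1 to 3 were at 1412, 1418 and 1253 CPM, above the 1156, 1084 and 956 CPM of BDF1, with a log2 change of 0.36 (edgeR adjusted p 0.356, SE 0.204). Ground was at 1096, 1123 and 609 CPM there. The change in Space thus differed between the sets by -1.10 on the log2 scale (edgeR adjusted p 0.0483, SE 0.289), a call that was lost with the replicate number as a block (adjusted p 0.0673) and in 13 of 18 fits with 1 library fewer.

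Mt1 and Mt2 encode metallothioneins, small cysteine-rich proteins that bind zinc and copper and are induced by metals, glucocorticoids and inflammation. They are neighbours on chromosome 8 (Mt1 at chr8:94179082-94180327 and Mt2 at chr8:94172664-94173568, plus strand), and their coding sequences of 183 bases each are 79.2% identical, with no identical run over 20 bases. Exons of Mt2 share 432 bases with the antisense gene Gm45774, and the strand setting of the counting is not given in the sources used here, so Mt2 counts are less certain.

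The metallothioneins had the largest log2 changes of the 10 members in replicates 4 to 6. Mt1 of replicates 4 to 6 was at 1638, 1288 and 1076 CPM in Space and at 1202, 1076 and 1132 CPM in Ground, against 117, 105 and 214 CPM in BDF1. Mt2 was at 1233, 879 and 860.3 CPM in Space, 792, 634 and 536 CPM in Ground and 61.3, 57.5 and 146 CPM in BDF1. All 6 pups lay above all 3 controls for both genes. Mt1 was 9.18-fold higher in Space and 7.82-fold higher in Ground, with log2 changes of 3.20 (edgeR adjusted p 0.00345, SE 0.592) and 2.96 (adjusted p 0.00365, SE 0.586). For Mt2 the folds were 11.2 and 7.40, with log2 changes of 3.48 (edgeR adjusted p 0.00844, SE 0.757) and 2.88 (adjusted p 0.0155, SE 0.737). The Mt2 calls were lost without BDF1 replicate 5 in Space (adjusted p 0.0505), and in Ground without BDF1 replicate 4 or 5 (adjusted p up to 0.0710).

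Both genes were low and uneven in replicates 1 to 3. Mt1 read 62.7, 66.7 and 27.3 CPM in Space, 392, 49.3 and 137 CPM in Ground and 61.6, 85.2 and 184 CPM in BDF1, and the groups overlapped. Ground replicate 1 was the highest library there for Mt1 and for Mt2 (436 CPM, against 28.1 and 107 CPM in the other Ground pups). The same library held 1622 CPM of the acute phase gene Saa1, against 38.4 and 46.1 CPM in the other Ground pups, and 68.7 CPM of Lcn2, against 2.10 and 2.00 CPM. BDF1 replicates 1 to 3 were high as well, at 204, 576 and 690 CPM of Saa1 and 6.40, 31.8 and 44.9 CPM of Lcn2, while Space ranged from 36.1 to 53.7 CPM and from 1.12 to 2.88 CPM. Without it the log2 change of Ground against BDF1 went from 0.80 to -0.25 for Mt1 and from 1.14 to -0.36 for Mt2, none of which passed. In Space pups the change differed between the sets by 4.27 for Mt1 (edgeR adjusted p 0.00835, SE 0.806) and by 4.69 for Mt2 (adjusted p 0.0192, SE 1.02). With the block the Mt2 difference was not called (adjusted p 0.0557), and it was lost in 4 of 18 fits with 1 library fewer, while that of Mt1 was called in all of these. In Space pups the acute phase genes Hp (a difference of 2.33, edgeR adjusted p 0.0313) and Lcn2 (6.06, adjusted p 0.0328) differed between the sets in the same direction as Mt1 and Mt2, and Saa1 had a difference of 3.91 (adjusted p 0.178). Hp fell in BDF1, from between 68342 and 145793 counts in replicates 1 to 3 to between 31646 and 36455 in 4 to 6. In Space it went from between 39155 and 43462 to between 48305 and 51442 counts. Lcn2 in replicates 4 to 6 was between 30.7 and 33.6 CPM in Space and between 5.10 and 7.67 CPM in BDF1. Mt1 means in BDF1 were 110.2 and 145 CPM. Of the 9 acute phase genes listed, without Lcn2, only Hp was called, where 1.77% of all genes were higher and 1.42% lower by this difference, and their median was 1.75. Their part in the metallothionein levels was not tested. For Ground pups the differences were 2.16 (adjusted p 0.155) for Mt1 and 1.74 (adjusted p 0.385) for Mt2.

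Between Space and Ground pups no member was called within either set, although some ranges were apart. Within replicates 1 to 3, 0 of 10 were called by edgeR and by DESeq2, beside 0.00749% of all genes in edgeR and 0.738% in DESeq2. Tat and Tdo2 were higher in Space without overlap, 2 of 10 members where 16.5% of all genes did not overlap. An unadjusted p under 0.05 was found for 3 of 10 members, beside 9.67% of all genes. These were Mt1 (-1.87 in Space relative to Ground, SE 0.566, edgeR adjusted p 0.332), Mt2 (-2.35, SE 0.727, adjusted p 0.336) and Tdo2 (0.54, SE 0.204, adjusted p 0.421). The Mt1 difference rested on single libraries. Without Ground replicate 1 it was -0.82 (edgeR adjusted p 0.803), and without Ground replicate 2 it passed (adjusted p 0.0430). For Mt2 the difference without Ground replicate 1 was -0.85 (adjusted p 0.840). Within replicates 4 to 6, 0 of 10 were called by either tool, beside 0.0225% of all genes in edgeR and 1.6% in DESeq2, and 0 had an unadjusted p under 0.05, beside 13.9% of all genes. Mt2 alone of the 10 did not overlap there, higher in Space, where 13.8% of all genes did not overlap.

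In the mean of the 3 groups, replicates 4 to 6 differed from 1 to 3 in 7 of 10 members, where 38% of all genes differed. Higher were 4 of 10 (background 19.4%) and lower 3 of 10 (background 18.6%). Mt1 was higher in replicates 4 to 6 by 2.54 on the log2 scale (edgeR adjusted p 1.79e-05, SE 0.334), Mt2 by 2.19, Fkbp5 by 1.21 and Hsd11b1 by 0.56. Tsc22d3 was lower (-1.95, SE 0.185, edgeR adjusted p 4.84e-07), as were Tat (-0.65) and Tdo2 (-0.64). Within BDF1 alone the means of replicates 1 to 3 and 4 to 6 were 110.2 and 145 CPM for Mt1, 86.1 and 88.4 CPM for Mt2, 32.1 and 30.5 CPM for Fkbp5, and 604 and 668 CPM for Hsd11b1. Tdo2 was at 1065 and 1055 CPM in BDF1, Tat went the other way, at 1288 and 1843 CPM, and Tsc22d3 was at 88.1 and 42.7 CPM. The Tat call did not hold in 11 of the 18 fits with 1 library fewer, without Space replicates 1, 2, 3, 5 or 6, Ground replicates 1, 2 or 4, or BDF1 replicates 1, 4 or 5. The clock gene Dbp, whose level swings over the day, moved with the sets as well, from between 0.836 and 5.98 CPM in replicates 1 to 3 to between 72.8 and 204 CPM in replicates 4 to 6. Of 13 clock genes, 8 were higher and 4 lower in replicates 4 to 6. Against BDF1, 6 clock genes were higher in Space and 3 in Ground pups of replicates 1 to 3, beside 2.85% and 1.14% of all genes. In replicates 4 to 6, 2 were higher in each pup group, beside 6.43% and 7.86% of all genes, with 1 lower in Space and 2 lower in Ground, beside 5.49% and 7.35%. The part of the daily rhythm in the members' levels was not tested.

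**Figure D3:**
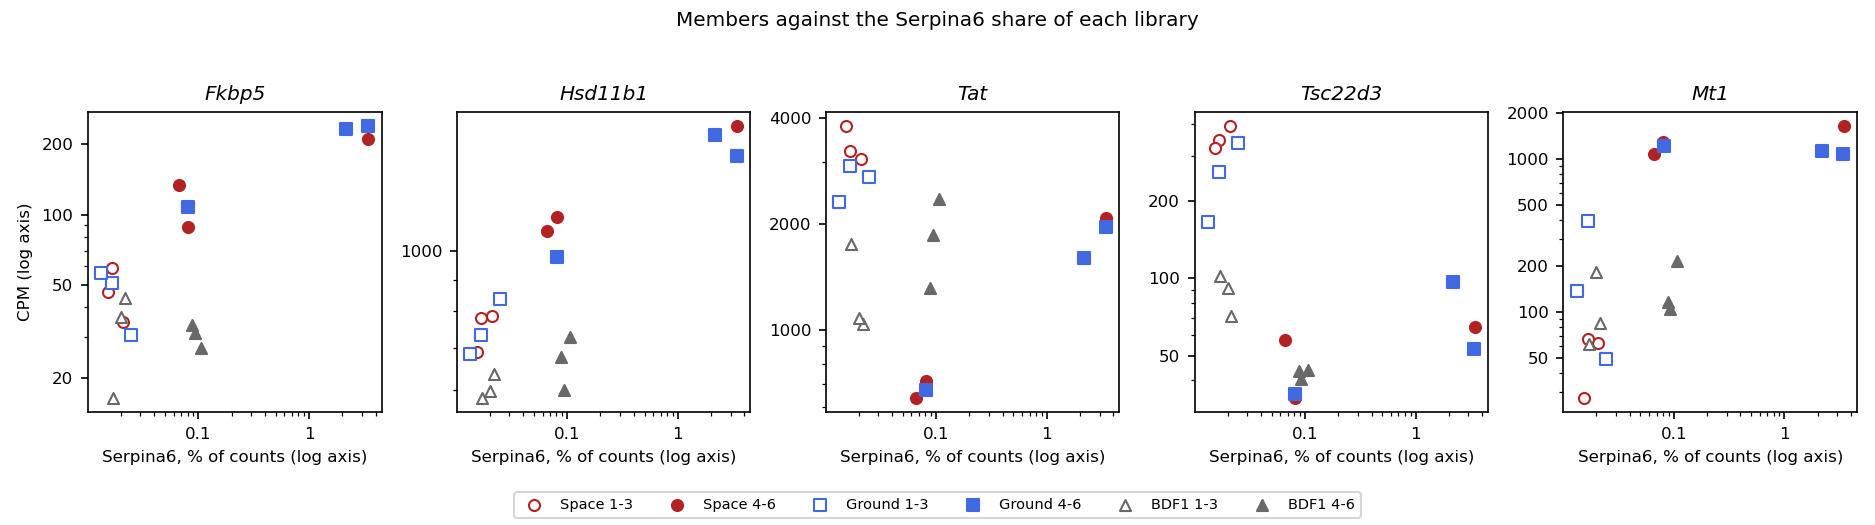
Level of 5 members in CPM against the share of counts taken by Serpina6 in percent, both on log axes, 1 point per library. Open symbols are replicates 1 to 3 and filled symbols replicates 4 to 6. The 3 libraries over 2% hold the highest Fkbp5 and Hsd11b1 levels of all 18, and for Mt1 they lie among the other pups of replicates 4 to 6.

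The Serpina6 share fell into separate clusters, between 0.0133% and 0.0247% in replicates 1 to 3, between 0.0664% and 0.107% in 6 libraries of replicates 4 to 6, and over 2% in 3 pups. Values are therefore set side by side, without a pooled correlation. The 3 Serpina6-rich pups held between 211 and 239.6 CPM of Fkbp5, against between 88.2 and 134 CPM in the other 3 pups of replicates 4 to 6. For Hsd11b1 the ranges were 1418 to 1586 against 977 to 1132 CPM, for Tat 1597 to 2078 against 636 to 714 CPM, and for Sgk1 17.8 to 41.3 against 7.37 to 11.5 CPM. In these 4 of 10 members the Serpina6-rich pups lay above the other pups without overlap, as did 13.1% of all 13356 genes tested. These are levels after TMM scaling. The TMM factors were at most 0.762 in the Serpina6-rich pups and at least 0.901 in the other pups of replicates 4 to 6. A lower factor gives a higher CPM for the same counts and total. Whether the ranges stay apart with total counts was not tested. The ranges of the other 6 members overlapped. For Mt1 they were 1076 to 1638 CPM against 1076 to 1288 CPM. Tsc22d3 overlapped by 1 library on each side, at 52.9, 64.7 and 96.3 CPM against 34.0, 35.4 and 57.6 CPM, and without the Serpina6-rich libraries its log2 change in Ground pups went from 0.52 to -0.28, neither of which passed. The split was read from the data and was given no test. Without these 3 libraries Fkbp5, Hsd11b1 and Mt1 were called in both pup groups of replicates 4 to 6, Fkbp5 in Ground at a log2 change of 1.81 in place of 2.66, while in Ground, left with 1 library, Mt2 (adjusted p 0.0514) and Tdo2 (adjusted p 0.0687) were not, the lone sample being assumed to vary like the others.

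Within replicates 1 to 3 no member followed the Serpina6 share after adjustment over the 10 relations. Klf9 had the strongest, with Pearson's r = -0.762 (exact permutation p = 0.0189, adjusted 0.189, n = 9) and Spearman's rho = -0.733 (exact permutation p = 0.0311, adjusted 0.216). Without the 2 libraries farthest from the median share its r was -0.446, and it was no longer the strongest. Tat then had r = -0.6705 in place of -0.330, and Tsc22d3 had r = -0.467 in place of -0.0525. Over all 9 libraries r of the other 9 members lay between -0.565 and 0.413. By rank Fkbp5 was close to Klf9, with Spearman's rho = -0.700 (exact permutation p = 0.0433, adjusted 0.216, n = 9) and r = -0.365, and the other 8 had rho between -0.433 and 0.20.

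The genes most like each leading member were read over the 18 libraries, which share their group and replicate set, so the correlations are descriptions. Tsc22d3 was most like Tnfrsf1b (r = 0.962), Chordc1 (0.949) and Dnajb1 (0.937), the last a heat shock co-chaperone. Fkbp5 was most like Ctsz (0.954), Lrpap1 (0.940) and Cfi (0.934), with Hsd11b1 in place 10 of 12846 genes (0.915). Mt1 was most like Mt2 (0.989), and this pair kept r = 0.989 when the mean of each group and set was taken out. Scara5 (0.927) and Saa4 (0.872) came next in those deviations. For Fkbp5 the closest in deviations were Selenop (0.931), 3930402G23Rik (0.887) and Sdc4 (0.866), and for Tsc22d3 they were Pacsin3 (0.944), Mcts2 (0.872) and 9330020H09Rik (0.871).

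Per kilobase of exon, the mean level over all libraries ran from 3.43 CPM for Sgk1 to 810.0 CPM for Tat. Mt2 followed at 580.2, Mt1 at 397, Tdo2 at 240.3 and Hsd11b1 at 209.7 CPM per kilobase. Tsc22d3 (32.7), Klf9 (19.7), Fkbp5 (8.68) and Nr3c1 (7.96) were lower. This order differed between the groups. In BDF1 alone Tdo2 followed Tat (651) at 273 CPM per kilobase, and Hsd11b1 (149.6), Mt2 (148) and Mt1 (102.5) came after it. Within Mt1 this level ranged from 21.9 to 1315 CPM per kilobase between libraries. The exon length used was 1246 bases for Mt1, its whole gene span, and 588 bases for Mt2. The place of Mt2 above Mt1 rests on these lengths, as Mt1 had more counts than Mt2 in every library but Ground replicate 1.

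**Figure D4:**
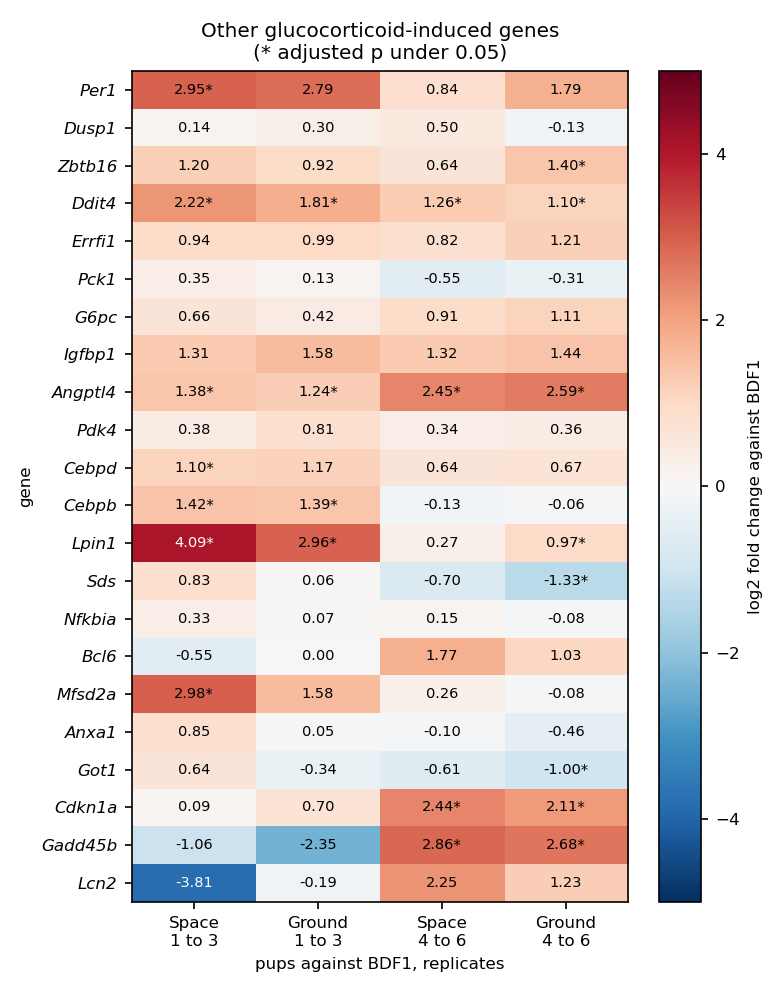
Log2 fold change against BDF1 of 22 other glucocorticoid-induced genes in Space and Ground pups, by replicate set. Colour gives the size and direction, and asterisks mark an edgeR adjusted p under 0.05. Ddit4 and Angptl4 carry an asterisk in all 4 columns, Cebpb in the 2 columns of replicates 1 to 3, Lpin1 in these and in Ground of replicates 4 to 6, and Gadd45b and Cdkn1a in those of replicates 4 to 6.

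Other genes known to be induced by glucocorticoids, 22 in all, were called more in the upward than in the downward direction. Among replicates 1 to 3, 7 were higher and 0 lower in Space, 4 were higher and 0 lower in Ground, where 2.85% and 1.14% of all genes were higher and 1.8% and 0.786% lower. Among replicates 4 to 6, 4 were higher and 0 lower in Space, 6 were higher and 2 lower in Ground, where 6.43% and 7.86% of all genes were higher and 5.49% and 7.35% lower. Their median log2 changes were 0.84, 0.76, 0.64 and 1.00 in that order, beside -0.0036, 0.0086, 0.0094 and 0.0098 over all genes tested. Ddit4, an inhibitor of mTOR signalling, rose in both sets, in Space by 2.22 in replicates 1 to 3 and 1.26 in 4 to 6, in Ground by 1.81 and 1.10. Angptl4, which blocks lipoprotein lipase, rose by 1.38 and 2.45 in Space and by 1.24 and 2.59 in Ground. Lpin1, a phosphatidate phosphatase, was at 337, 406 and 550.3 CPM in Space and 182, 223 and 192 CPM in Ground of replicates 1 to 3, against 24.2, 22.3 and 29.7 CPM in BDF1. The log2 changes were 4.09 (edgeR adjusted p 1.21e-05, SE 0.356) and 2.96 (adjusted p 0.000614, SE 0.340), and the change in Space was smaller in replicates 4 to 6 by a difference of -3.83 (adjusted p 0.000896). For Gadd45b, a stress gene, the calls were in replicates 4 to 6, with log2 changes of 2.86 in Space and 2.68 in Ground (edgeR adjusted p 0.00407 and 0.00428). Of the Ground calls in replicates 4 to 6, Sds (-1.33) and Got1 (-1.0), enzymes of amino acid breakdown, were the 2 lower ones.

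Of 15 chaperones, coregulators and relatives of the receptor, 4 were higher and 0 lower in Space and 2 were higher and 0 lower in Ground pups of replicates 1 to 3, beside 2.85% and 1.14% of all genes higher. Hspa8, a constitutive chaperone, rose by 1.42 in Space (edgeR adjusted p 0.000458, SE 0.186) and 1.16 in Ground (adjusted p 0.00553, SE 0.184), and Hsp90aa1 by 0.87 in Space (adjusted p 0.0395). In replicates 4 to 6, 0 were higher and 2 lower in each pup group, beside 5.49% and 7.35% of all genes lower. Nr3c2, the mineralocorticoid receptor, was lower in Space there, by a log2 change of -1.58 (edgeR adjusted p 0.000266, SE 0.196), at 5.42, 6.84 and 4.83 CPM against 14.6, 20.3 and 16.3 CPM in BDF1. Ground pups, at 14.4, 12.1 and 10.0 CPM, were not among its calls.

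Of 13 other enzymes of tyrosine and tryptophan breakdown, 1 was higher in Space and 0 were called in Ground of replicates 1 to 3, beside 2.85% and 1.14% of all genes higher. In replicates 4 to 6, 0 were higher in either pup group, and 2 were lower in Space and 6 in Ground, beside 5.49% and 7.35% of all genes lower. Among 9 genes of metal handling, Mt3 and Mt4 stayed under 3 counts in every library. In replicates 4 to 6 the manganese exporter gene Slc30a10 rose by 1.05 in Space and 0.78 in Ground (edgeR adjusted p 0.000238 and 0.000846), and the importer gene Slc39a14 by 0.82 and 0.97 (adjusted p 0.0474 and 0.0184). Slc30a1, a zinc exporter, was lower in Space of replicates 1 to 3 (-0.71, adjusted p 0.0293) and higher in Ground of replicates 4 to 6 (0.57, adjusted p 0.0341).

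Markers of other cells were also called in these libraries, where 11.9% of all genes were called in Space and 15.2% in Ground pups of replicates 4 to 6. In replicates 4 to 6 all 4 haemoglobin genes were higher in both pup groups, with a summed level between 185 and 653 CPM in Space, 68.2 and 492 CPM in Ground and 20.7 and 68.0 CPM in BDF1. Kupffer cell markers summed to between 114 and 158, 103 and 159, and 56.8 and 123 CPM, with 1 of 4 called in Space and 0 of 4 in Ground. Of 9 acute phase genes, 1 was higher and 1 lower in Space and 2 were higher in Ground, and 0 were called in either pup group of replicates 1 to 3. Of 6 hepatocyte markers, Alb among them, 2 were higher and 1 lower in each pup group. Single calls came from the markers of stellate cells (1 of 4 lower in Space), sinusoidal endothelium (1 of 3 higher in Ground), cholangiocytes (1 of 3 lower in Ground) and pancreas (Cela1, 1 of 1 tested, lower in each). The other pancreas genes, Prss2 and Cpa1, had at most 3 counts in any library. The 2 lymphocyte and 2 adrenal genes tested gave 0. In replicates 1 to 3 the stellate cell gene Dcn was higher (0.61, edgeR adjusted p 0.0187) and the cholangiocyte gene Sox9 lower (-1.09, adjusted p 0.0193) in Space. The endothelial gene Stab2 was higher in Ground (0.90, edgeR adjusted p 0.0245). They were 1 of 4 stellate cell, 1 of 3 cholangiocyte and 1 of 3 endothelial genes, beside 4.64% of all genes called in Space and 1.92% in Ground. The median log2 change was 0.65 for the stellate cell and 0.046 for the cholangiocyte genes in Space, and -0.18 for the endothelial genes in Ground. In that set 0 of the hepatocyte, Kupffer cell, haemoglobin, lymphocyte, adrenal and pancreas genes tested were called. The part of these markers in the changes of Tsc22d3, Fkbp5, Hsd11b1 and the metallothioneins was not tested. When libraries were scaled by total counts, without TMM factors, the median of all genes moved by -0.40 in Space and -0.47 in Ground pups of replicates 4 to 6, and the 5 calls in each group kept their direction, with Mt1 and Mt2 still higher by more than 2 on the log2 scale. Tsc22d3 and Klf9 in that set, which were not called, then changed sign. With total counts 37.3% of all genes were called in Space and 45.9% in Ground there, against 11.9% and 15.2% with TMM factors.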

How the data were processed

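Liver RNA-seq libraries, 18 in all and 6 per group, were analysed. Per the labels, RNA was prepared with TRIzol and an RNeasy kit, and libraries with Illumina Stranded mRNA Prep for paired-end reads on a NextSeq instrument. According to the submitters' processing notes the authors used bcl2fastq 2.20, cutadapt 4.6, HISAT2 2.2.1, the mm10 build and HTSeq 2.0.2. The deposited values are whole-number read counts per gene, not normalized, and the strand setting is not given in the sources used here. Of 32285 genes, 10671 had no counts.

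The counts were fitted with edgeR 4.0.16 (R 4.3.3), using filterByExpr, TMM factors, quasi-likelihood F-tests and Benjamini-Hochberg adjustment over all genes tested, at 0.05. The comparisons over all replicates used the 3 groups (12847 genes) and those within replicates 1 to 3 or 4 to 6 used 6 cells of group and replicate set (13356 genes). Differences between the sets were interaction contrasts. SE is the log2 change divided by the square root of F. DESeq2 1.42.0 was an alternative. The scripts were tested on simulated data. CPM used the TMM-scaled library sizes, and 3 counts corresponded to between 0.134 and 0.236 CPM. Exact permutation tests (scipy 1.17.1) were two-sided and covered 9 libraries.

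The members and the gene lists were chosen with earlier results of these data known. Named were all members, the carrier gene Serpina6, and list genes with the largest called changes or roles next to a member, with Saa1, Lcn2, Dbp and H6pd singled out after their values were seen. The study's text speaks of males and females from the groups and of 3 wild-type mice, while the labels list 6 BDF1 libraries and give no sex. Each library was taken as 1 mouse, and sets are called by replicate number. Nothing ties pups to litters, so p-values measure only the spread between these samples. No 2 libraries were alike within sampling noise (lowest chi-square per gene 7.90). Same-numbered libraries deviated together from their group means (r between 0.231 and 0.654 over 18 pairs), so the numbers were also fitted as a block. Within a set, libraries of other numbers did the same (median r 0.529 over 36 pairs, against 0.487), and nothing in the labels says that a number marks a litter or day. With the mean of each group and set taken out, the median r was -0.046 for same-numbered pairs and 0.0092 for the other pairs. For Space replicate 4 and Ground replicate 4 it was -0.604. Promoter sequences are RefSeq's (GRCm38.p6), with entries for 9 of the 10 members, and gene positions are GENCODE's for mm10.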

Additional observations from a re-analysis of the deposited data

Results flagged for a closer look

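In Space, replicate 4 stood apart from the other 5 libraries in the share of counts taken by Serpina6, at 3.43% against at most 0.0806%, a gap of 0.981 of the group's range. Of 33 sets of 6 values examined this was the only one that stood apart, where chance gives about 1.65.

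In Space pups the change against BDF1 differed between replicates 1 to 3 and 4 to 6 for 4 members by the edgeR interaction test. The differences on the log2 scale were 4.27 for Mt1, 4.69 for Mt2, -1.72 for Tsc22d3 and -1.10 for Tdo2. With the replicate number as a block, Mt1 alone was still called, and the adjusted p was 0.0557 for Mt2, 0.0668 for Tsc22d3 and 0.0673 for Tdo2. Mt1 was called in every fit that left out 1 library. The Mt2 call was lost without Space replicate 3 or BDF1 replicates 3, 4 or 5. The Tsc22d3 call was lost without any BDF1 library, Space replicates 1, 2, 3, 5 or 6, or Ground replicate 1. That of Tdo2 was lost without any BDF1 or Space library or Ground replicate 1.

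In Ground pups the change of Fkbp5 was larger in replicates 4 to 6 by 2.15 on the log2 scale, which was not called with the replicate block (edgeR adjusted p 0.120) and was lost in 13 of 18 fits that left out 1 library, those without BDF1 replicates 2 to 6, Ground replicates 1, 2, 3, 5 or 6, or Space replicates 2, 3 or 6.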

How the results depend on the processing

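Counts of called members were within 1.5 times the reported count in 84 of 102 fits under other settings and in 189 of 234 that left out 1 library. In Space against BDF1 (3.8% of all genes called), 3 members were called with DESeq2 (8.02%), 1 with the replicate block (Hsd11b1, adjusted p 0.0466, with 6.02% of genes) and 3 with the replicate set as a covariate (10.4%). In Ground against BDF1 (3.81%) it was 2 with DESeq2 (8.46%), 0 without a filter on low counts (1.01%), 2 with the block (Hsd11b1 added, 0.0407, with 6.56%), 3 with the set as a covariate (11.2%) and 0 without the 3 Serpina6-rich libraries (2.33%). In replicates 1 to 3 Space (4.64%) had 2 with DESeq2 (7.81%), with the 9 libraries alone (8.56%) and without the Serpina6-rich ones (8.55%), and Ground (1.92%) had 2 under the last 2 settings (4.4% and 5.02%) and 0 with the block (0.689%). Differences between the sets numbered 1 in Space with the block (1.72% of genes, against 3.19%), and in Ground (2.74%) 4 with total counts (11.2%), 0 with the block (1.09%) and 2 without the Serpina6-rich libraries (2.07%). The replicate block changed no other call. Leaving out 1 library gave 0 to 0 members in Space against BDF1, 0 to 2 in Ground against BDF1 and 0 to 0 between the pups; within replicates 1 to 3, 1 to 2, 0 to 1 and 0 to 1; within 4 to 6, 4 to 6, 4 to 6 and 0 to 0; for the differences between sets, 1 to 5, 0 to 2 and 0 to 0; and 6 to 7 between the sets. Hsd11b1, Fkbp5 and Mt1 were called in replicates 4 to 6 in every one of these fits. The other causes were not tested.

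Signs were not followed for most members between Space and Ground pups within a set, nor in their difference between sets. Elsewhere signs changed only for members that were not called. With total counts these were Sgk1 in Space against BDF1 (-0.093), Hsd11b1 between the pups (0.0039), Tsc22d3 (-0.13) and Klf9 (-0.089) in Space of replicates 4 to 6, Tsc22d3 (-0.018) and Klf9 (-0.018) in Ground there, Klf9 in the Ground difference between sets (-0.38), and Nr3c1 (-0.048) and Klf9 (-0.12) between the sets. Without the Serpina6-rich libraries they were Sgk1 (-0.024) and Tdo2 (0.00034) in Space against BDF1, Hsd11b1 (0.15), Fkbp5 (0.25) and Klf9 (0.035) between the pups, Sgk1 in Space (-0.0032) and Tsc22d3 (-0.28) and Sgk1 (-0.46) in Ground of replicates 4 to 6, and Sgk1 in the Ground difference (-0.59). Between the pups Mt1 and Mt2 were -0.37 and -0.20 with the block and -0.46 and -0.35 with the set as a covariate. Leaving out 1 library, the log2 changes ran from -0.025 to 0.51 for Sgk1 and -0.22 to 0.045 for Tdo2 in Space against BDF1; between the pups from -0.20 to 0.12 for Hsd11b1, -0.062 to 0.35 for Tat, -0.40 to 0.32 for Mt1, -0.19 to 0.56 for Mt2 and -0.19 to 0.0070 for Klf9; for Sgk1 in Space from -0.50 to 0.33 in replicates 1 to 3 and -3.6e-05 to 0.93 in 4 to 6; in Ground of replicates 1 to 3 from -0.25 to 1.39 for Mt1, -0.36 to 1.73 for Mt2, -0.041 to 0.29 for Nr3c1, -0.33 to 0.056 for Tdo2 and -0.23 to 0.59 for Sgk1; and from -0.24 to 0.33 for Klf9 in the Ground difference.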
